A study of Mus musculus with 7 samples.

Results

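Collagens, the triple-helical proteins of the extracellular matrix, were compared between neural crest-derived cells and the remaining cells of the mouse fetal bowel. The members are the genes whose symbol in the platform annotation has the form of a collagen chain, and 44 of 19938 measured genes, of 27 collagen types, met that rule. For a gene with several one-symbol probe sets, the probe set brightest on average across all 7 arrays stood for it. By structural class, 11 genes were fibrillar, 9 formed networks or basement membrane, 8 were beaded or anchoring, 9 belonged to the fibril-associated collagens with interrupted triple helices (FACIT) and 6 to the multiplexin and transmembrane collagens. Col26a1, a collagen of none of these classes, is given on its own.

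The samples came from the whole bowel of embryos at embryonic day 17.5 that all carried Wnt1-Cre and the reporter R26R-EYFP. Wnt1-Cre is a recombinase driven by a promoter of the early neural crest, and the reporter makes a yellow fluorescent protein in each cell, and its descendants, in which Cre has acted. Fluorescence-activated sorting gave 4 YFP-positive samples (ENCDC, for enteric neural crest-derived cells), the source of cells that form the neurons and glia of the gut, and 3 YFP-negative samples, which hold the other bowel cells. Each sample was measured on an Affymetrix gene array as log2 expression levels, and the labels do not say whether samples of a group came from separate embryos or litters, so p-values measure the spread between these samples.

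Collagen chains assemble in threes in the endoplasmic reticulum into a triple helix, which needs hydroxylated proline and lysine residues and a dedicated chaperone. Fibrillar collagens of types I, III and V are then trimmed outside the cell and line up into fibrils, FACIT collagens coat those fibrils, type VI forms beaded filaments around cells, and type IV is the sheet of the basement membrane. In the bowel wall mesenchymal and smooth muscle cells are known as main makers of fibrillar collagen, and the crest-derived cells migrate through that matrix and lie on basement membrane.

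Neuron, glia and myeloid markers differed in the direction of the sort labels. All 11 measured enteric neuron markers and 9 of 10 glial and Schwann markers were higher in YFP-positive arrays, and all 12 myeloid markers were lower (limma adjusted p under 0.05 for each). Other lists of cells outside the crest separated unequally. Lower markers numbered 17 of 20 for mesenchyme, 6 of 8 for pericytes and 7 of 12 for smooth muscle. They numbered 2 of 12 for endothelium, 1 of 8 for mesothelium and 0 of 12 for epithelium. Mesenchyme and endothelium each had 1 higher marker. Over all genes 9.11% were lower and 8.39% higher. Array medians ran from 5.87 to 5.92 (log2), and precision is limited by how few arrays there are. Among the YFP-positive arrays, arrays 3 and 4 had the higher mean level of mesenchyme, smooth muscle, myeloid and epithelium markers and the lower mean level of neuron and glia markers, so the main counts below are also given without those arrays.

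Upstream sequence is shown for the genes with the largest increases, Col18a1 and Col11a1, and for 1 lower gene each of types I, III and VI, because these carry the opposite directions described below. Promoter windows in the RefSeq table (GRCm38.p6) were matched for 35 of the 44 genes. Each line gives the 250 bases before the transcription start, 5′ to 3′ on the strand of the gene, with capitals marking the motifs searched. These were the GC box GGGCGG, the TATA box TATAAA, the CCAAT box CCAAT, the AP-1 site TGACTCA and the Sox core ACAAAG, each on both strands.
Col18a1, chr10:77166531-77166780, minus strand: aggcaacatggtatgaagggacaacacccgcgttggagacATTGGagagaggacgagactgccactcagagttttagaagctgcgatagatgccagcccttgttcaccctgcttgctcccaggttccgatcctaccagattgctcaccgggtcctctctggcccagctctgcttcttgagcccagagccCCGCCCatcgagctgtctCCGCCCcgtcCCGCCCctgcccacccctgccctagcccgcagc
Col11a1, chr3:114030290-114030539, plus strand: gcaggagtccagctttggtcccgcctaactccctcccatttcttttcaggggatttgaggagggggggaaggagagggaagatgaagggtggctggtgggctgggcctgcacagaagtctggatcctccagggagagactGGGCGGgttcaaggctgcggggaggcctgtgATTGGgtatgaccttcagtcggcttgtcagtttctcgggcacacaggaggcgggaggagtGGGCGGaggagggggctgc
Col1a2, chr6:4505368-4505617, plus strand: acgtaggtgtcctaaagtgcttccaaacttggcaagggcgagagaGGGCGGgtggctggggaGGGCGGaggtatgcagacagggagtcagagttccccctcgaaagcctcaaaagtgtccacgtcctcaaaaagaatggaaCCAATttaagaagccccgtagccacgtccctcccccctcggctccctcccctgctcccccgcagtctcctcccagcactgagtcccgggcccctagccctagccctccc
Col3a1, chr1:45311288-45311537, plus strand: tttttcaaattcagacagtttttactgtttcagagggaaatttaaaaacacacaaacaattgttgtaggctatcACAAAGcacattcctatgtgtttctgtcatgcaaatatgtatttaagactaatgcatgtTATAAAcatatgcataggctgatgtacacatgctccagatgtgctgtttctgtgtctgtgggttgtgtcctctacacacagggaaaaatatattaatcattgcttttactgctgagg
Col6a1, chr10:76726045-76726294, minus strand: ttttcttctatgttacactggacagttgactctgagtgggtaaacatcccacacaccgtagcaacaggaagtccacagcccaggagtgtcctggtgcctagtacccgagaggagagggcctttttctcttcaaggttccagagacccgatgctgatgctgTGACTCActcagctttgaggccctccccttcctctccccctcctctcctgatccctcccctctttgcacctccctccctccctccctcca
The GC box, the CCAAT box and the Sox core were found in windows of both higher and lower genes. A GC box and a CCAAT box stood in the upstream window of both higher genes printed and also in that of Col1a2. Among all members with a window, 3 of 5 windows of higher genes and 7 of 11 of lower genes held the GC box, and 3 of 5 and 2 of 11 the CCAAT box. Col3a1, at 35.2% G and C, had a TATA match 117 bases and a Sox match 176 bases before the start, and Col6a1 had the AP-1 match 90 bases before it. Over all 32851 windows of this length, 32.7% held the GC box, 33.8% the CCAAT box, 12.4% the TATA box, 4.46% the AP-1 site and 16.5% the Sox core. Of the 38 windows of collagen genes, 22 held the GC box, 13 the CCAAT box, 5 the TATA box, 1 the AP-1 site and 4 the Sox core. Col18a1 has 2 listed starts, of which the upstream one is printed, and a single probe set does not tell their transcripts apart. A match describes letters in the window and is not evidence of binding.

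Among collagen genes, decreases in ENCDC outnumbered increases, and the counts differed by class. At a limma adjusted p under 0.05 over all genes, 14 of 44 were lower and 4 higher in YFP-positive arrays, which is 31.8% and 9.09% of the members. Over all genes 9.11% were lower and 8.39% higher, so the share of higher collagen genes was near that background. The median log2 fold change (YFP-positive minus YFP-negative) of the 44 genes was -0.14, against 0.01 over all genes. By at least 2-fold, 9 members were lower and 1 was higher, where 4.53% and 3.12% of all genes were. Lower members were chains of types I, III, V, VI, XII, XIV and XXIV, and higher members were Col18a1, Col11a1, Col20a1 and Col25a1.

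The lower count rested on the full set of arrays. Dropping YFP-negative array 2 left 6 lower genes, dropping YFP-negative array 1 left 7, as did dropping YFP-positive array 2, and dropping YFP-positive array 1 or 4 left 9. Without YFP-positive arrays 3 and 4 together, an alternative added with the values known, 8 were lower and 2 higher. The log2 decrease of all 14 lower genes was then larger in size than with all arrays. All 14 had their lowest YFP-positive level on array 1 or 2, and 11 had both array 3 and array 4 above these. The choice of arrays thus favours larger decreases, which are no separate result.

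**Figure D1:**
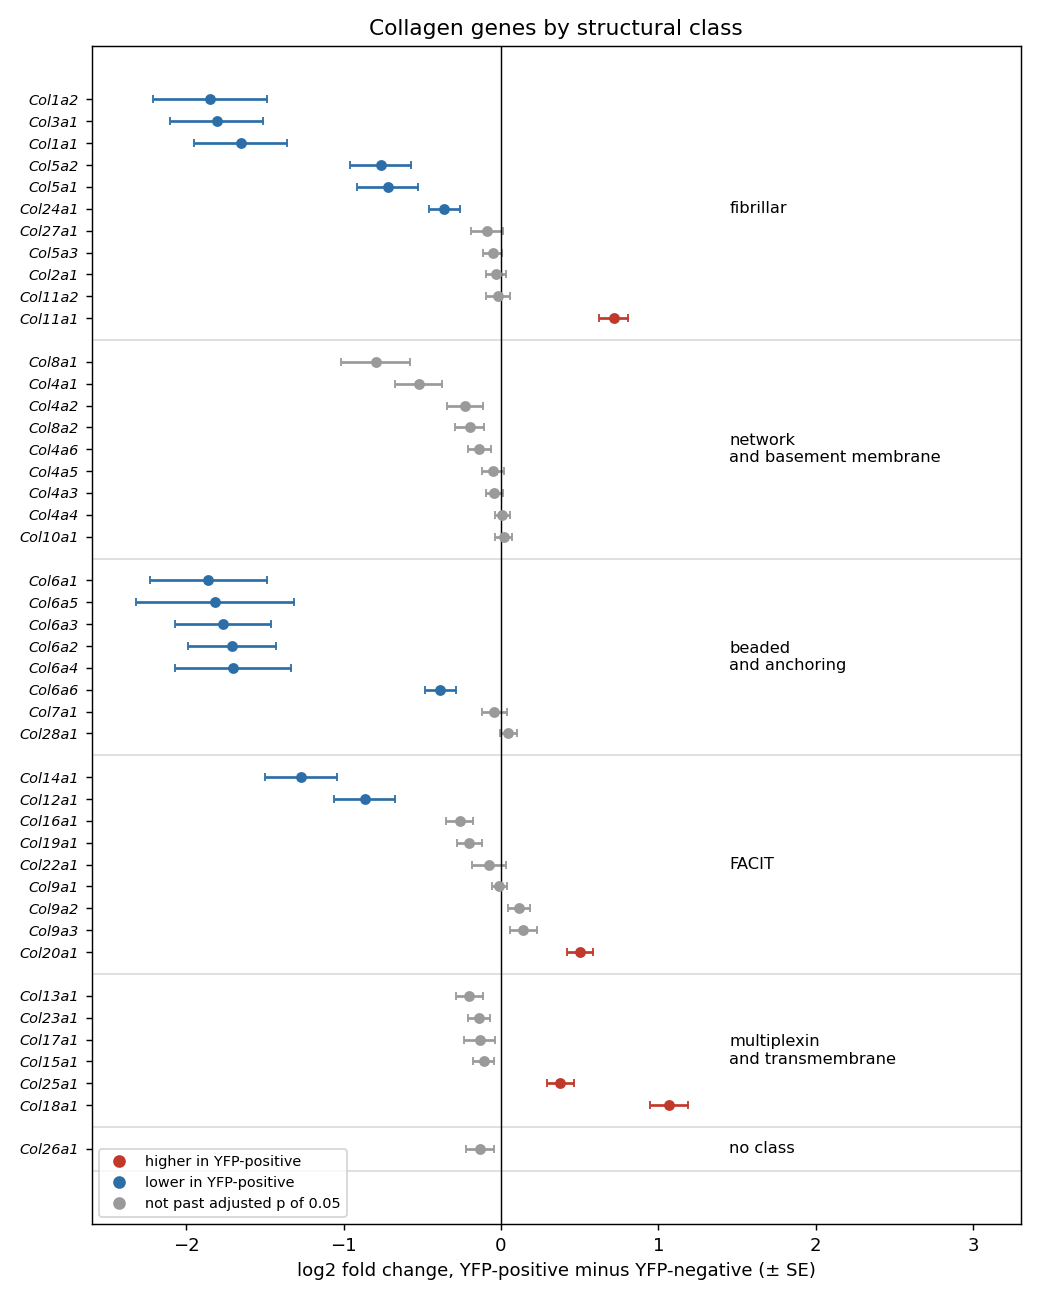
Log2 fold change of each of the 44 collagen genes, YFP-positive minus YFP-negative, with its standard error (bars), grouped by structural class; colours mark genes past the limma adjusted p of 0.05. The lower genes reach -1.86 (Col6a1) and the higher genes 1.07 (Col18a1), and no network or basement membrane gene passed.

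Fibrillar collagens were lower for the chains of types I, III, V and XXIV and higher for 1 chain of type XI. Of 11 genes 6 were lower, 1 was higher and 4 did not pass, and their median log2 fold change was -0.36. By share, 9.09% of the class were higher, near the 8.39% over all genes, where 9.11% were lower. Col1a1, the alpha 1 chain of type I collagen, had log2 levels of 7.77, 7.90, 8.64 and 8.81 on YFP-positive arrays 1 to 4 and of 10.07, 10.17 and 9.56 on YFP-negative arrays 1 to 3. The groups did not overlap, YFP-positive arrays 1 and 2 were the lowest, and the gene was 3.15-fold lower in ENCDC (log2 fold change -1.65 ± 0.30 SE, limma adjusted p = 0.00897).

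Col1a2, which supplies the alpha 2 chain of the same trimer, had log2 levels of 7.24, 7.93, 8.51 and 8.62 on YFP-positive arrays against 10.07, 10.24 and 9.46 on YFP-negative arrays. It was 3.60-fold lower (-1.85 ± 0.36 SE, limma adjusted p = 0.0128), and the call was lost without YFP-negative array 1 or 2 (adjusted p of up to 0.0618). Col3a1, the type III chain of distensible tissues such as bowel and vessel wall, stood at 7.64, 7.98, 8.50 and 8.71 on YFP-positive arrays and at 10.24, 10.23 and 9.56 on YFP-negative arrays (log2 levels). In Col3a1 each YFP-positive array was below each YFP-negative array and the level was 3.50-fold lower (-1.81 ± 0.29 SE, limma adjusted p = 0.00595).

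Type V collagen, which sits inside type I fibrils and limits their width, was lower by a smaller amount. Col5a2 had log2 levels of 6.72, 7.06, 7.21 and 7.20 on YFP-positive and 8.09, 7.95 and 7.40 on YFP-negative arrays (-0.76 ± 0.19 SE, limma adjusted p = 0.0352). Col5a1 had a log2 fold change of -0.72 ± 0.19 SE (limma adjusted p = 0.0454), and the groups did not overlap for either gene. Both calls were lost in the fits that left out YFP-negative array 1 or 2 or any single YFP-positive array, with adjusted p of up to 0.129 for Col5a2 and 0.140 for Col5a1. Col24a1, a minor fibrillar chain, differed by -0.36 ± 0.10 SE (limma adjusted p = 0.0473), and its call was lost whichever array was left out (adjusted p of up to 0.127).

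Col11a1 was the fibrillar gene with the opposite direction. This chain of type XI collagen, best known from cartilage where it seeds thin fibrils, had log2 levels of 6.45, 6.58, 6.28 and 6.37 on YFP-positive arrays and of 5.59, 5.69 and 5.84 on YFP-negative arrays. The groups did not overlap, and the gene was 1.64-fold higher in ENCDC (0.72 ± 0.09 SE, limma adjusted p = 0.00222), with the call kept in all 7 fits that left out 1 array (adjusted p of up to 0.0151). Its partner Col11a2 had a log2 fold change of -0.02 that turned to 0.01 after median centring or a further quantile normalization. Col2a1, the main cartilage chain, stood at -0.03, Col5a3 at -0.05 and Col27a1 at -0.09 (log2 fold changes), and none of these 3 passed.

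**Figure D2:**
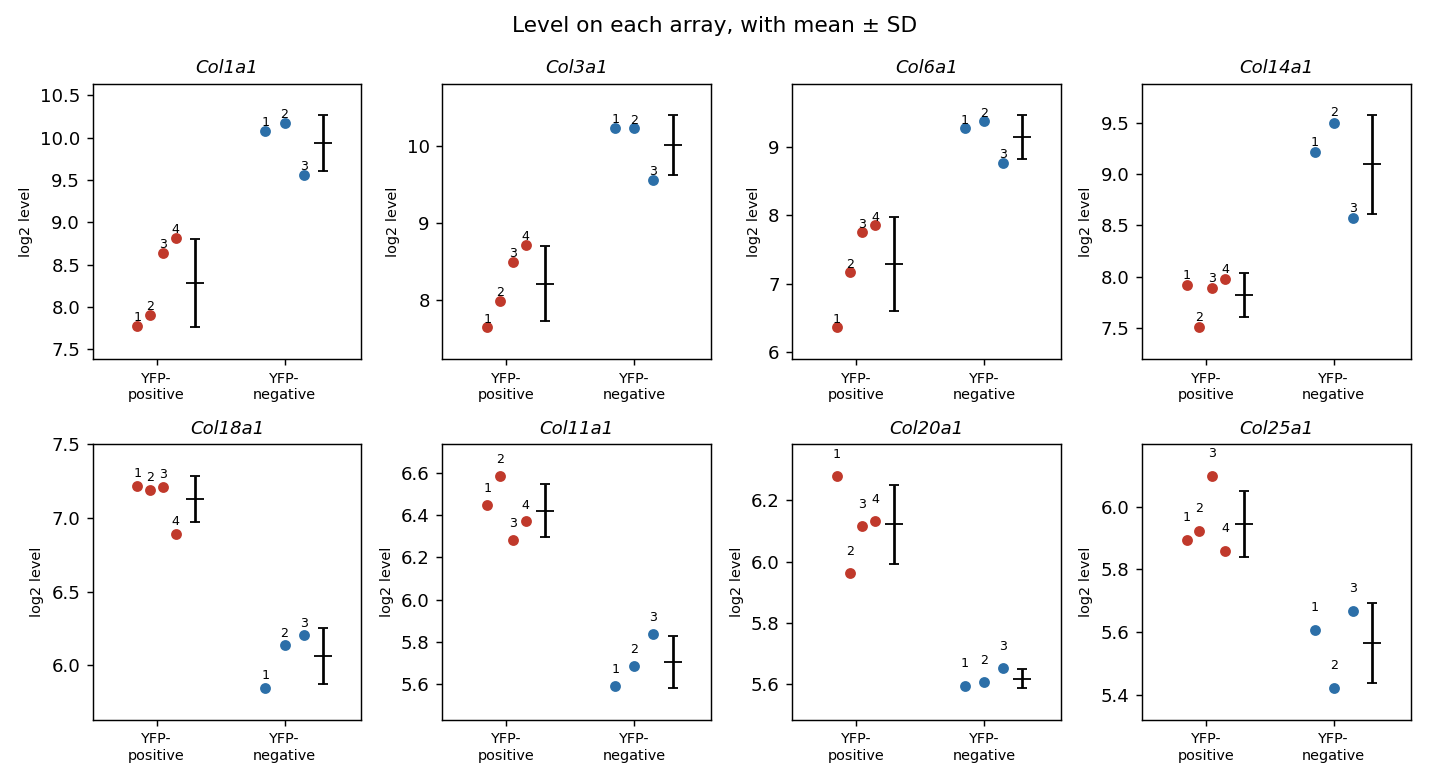
Log2 level of 8 collagen genes on each array, with numbers giving the array within its group and bars the mean ± SD; each panel has its own axis, which does not start at 0. The upper row shows 4 genes lower in YFP-positive arrays, Col1a1, Col3a1, Col6a1 and Col14a1, and the lower row the 4 higher genes; the groups do not overlap in any panel.

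Type VI collagen made up the lower genes of the beaded and anchoring class. Of 8 genes 6 were lower and 0 higher, with a median log2 fold change of -1.70, and 6 lower genes had no overlap between the groups, where 13.5% of all genes were lower without overlap. With an unadjusted p under 0.05, limma likewise had 0 higher members in this class. Col6a1, Col6a2 and Col6a3 encode the chains of the common type VI trimer, whose beaded filaments surround cells and bind basement membrane.

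Col6a1 had log2 levels of 6.36, 7.16, 7.75 and 7.86 on YFP-positive arrays and of 9.28, 9.38 and 8.77 on YFP-negative arrays. The spread within the YFP-positive group was wide, at an SD of 0.69, with array 1 lowest, yet no YFP-positive array reached a YFP-negative one. The gene was 3.63-fold lower (-1.86 ± 0.37 SE, limma adjusted p = 0.0141), and the call was lost when YFP-negative array 1, YFP-negative array 2 or YFP-positive array 2 was dropped (adjusted p of up to 0.0662). Col6a2 stood at 6.58, 7.03, 7.47 and 7.65 against 9.06, 9.10 and 8.51 (log2 levels) and was 3.27-fold lower (-1.71 ± 0.28 SE, limma adjusted p = 0.00583). Col6a3 stood at 6.89, 6.95, 7.83 and 8.04 against 9.12, 9.37 and 9.08 (log2 levels) and was 3.40-fold lower (-1.76 ± 0.31 SE, limma adjusted p = 0.00776). The calls of Col6a2 and Col6a3 were kept whichever single array was left out.

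The other type VI chains, Col6a4, Col6a5 and Col6a6, are related to the alpha 3 chain and can take its place in the trimer. Col6a5 had the widest spread of the called genes in both groups, with log2 levels of 5.14, 5.33, 6.86 and 6.01 on YFP-positive and 7.07, 8.52 and 7.36 on YFP-negative arrays. Its log2 fold change was -1.81 ± 0.50 SE (limma adjusted p = 0.0493), and the call held in 1 of the 7 fits that left out 1 array (adjusted p of up to 0.154). The other probe set of Col6a5 gave -1.16 ± 0.33 (SE) and did not pass when each probe set was tested on its own (limma adjusted p = 0.0536), nor did the probe set used here in that fit (limma adjusted p = 0.0503).

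Col6a4 was lower by a similar size, -1.70 ± 0.37 SE (limma adjusted p = 0.0192), with the call lost on dropping array 2 or 3 of the YFP-negative group or array 1 or 2 of the YFP-positive group (adjusted p of up to 0.0836). Col6a6 differed less, at -0.39 ± 0.10 SE (limma adjusted p = 0.0373), and its call was lost on dropping array 1 or 3 of the YFP-negative group or array 2, 3 or 4 of the YFP-positive group (adjusted p of up to 0.119). The remaining probe set of Col6a6 gave -0.57 ± 0.14 SE (limma adjusted p = 0.0342 over all probe sets). Col7a1, whose product anchors epithelium to the tissue below, stood at -0.04, and Col28a1, a collagen known from peripheral nerve glia, at 0.05 (log2 fold changes), and neither passed. Col28a1 had log2 levels of 4.72 on YFP-positive arrays 1, 3 and 4, of 4.82 on YFP-positive array 2, and of 4.67 to 4.72 on the YFP-negative arrays.

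**Figure D3:**
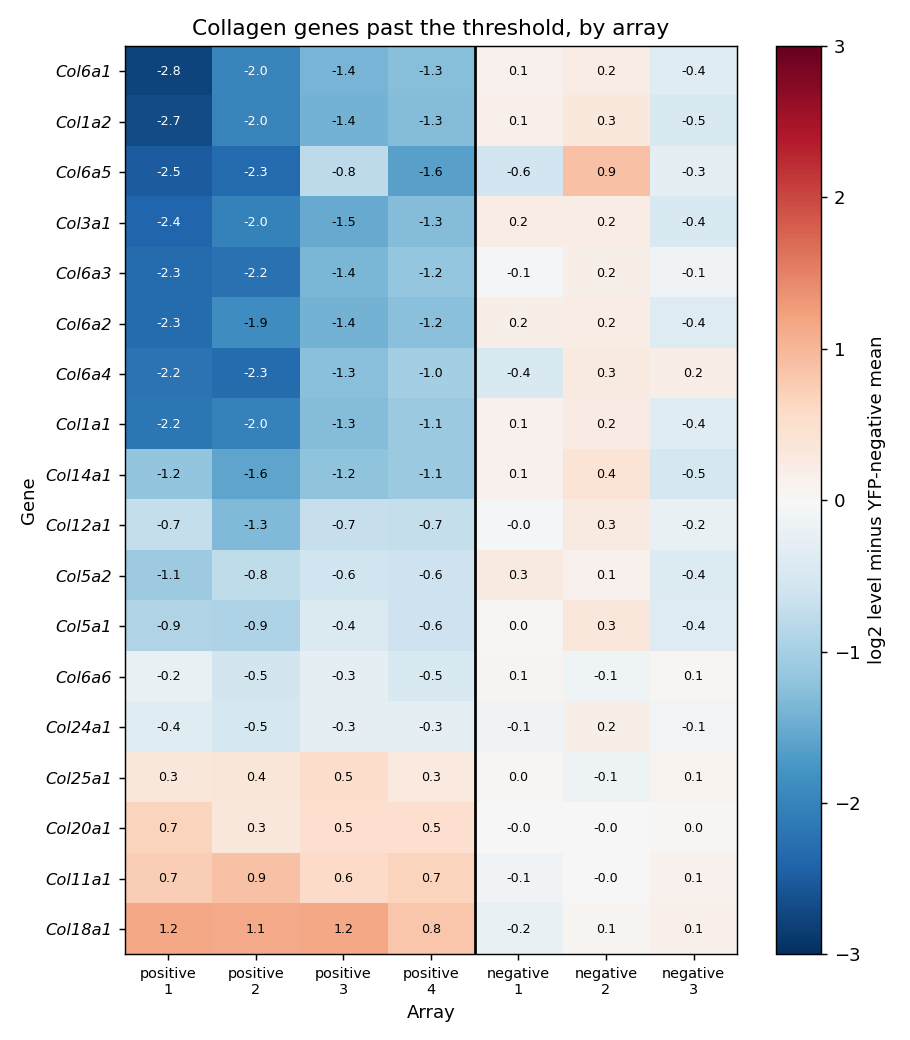
Level of the 18 collagen genes past the threshold on each array, as the log2 level minus the mean of the YFP-negative arrays (numbers in the cells), ordered by fold change; the line separates the groups. The lower genes are mostly bluest on YFP-positive arrays 1 and 2, and the 4 higher genes are above 0 on all 4 YFP-positive arrays.

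Among the FACIT collagens, 2 of 9 genes were lower and 1 was higher, with a median log2 fold change of -0.08. These are 22.2% and 11.1% of the class, beside 9.11% and 8.39% over all genes, so the higher share was near background. Col14a1, which binds fibrils of type I and is active in fetal connective tissue, had log2 levels of 7.92, 7.51, 7.89 and 7.97 on YFP-positive arrays and of 9.21, 9.50 and 8.57 on YFP-negative arrays. It was 2.41-fold lower (-1.27 ± 0.23 SE, limma adjusted p = 0.00888), and its lowest YFP-positive level was on array 2, while the other 3 lay close together. Col12a1, a related collagen of dense connective tissue, stood at 7.78, 7.15, 7.79 and 7.76 against 8.45, 8.75 and 8.26 (log2 levels) and was lower by -0.86 ± 0.19 on the log2 scale (SE, limma adjusted p = 0.0216). The call of Col12a1 was lost without YFP-negative array 1 or 2 (adjusted p of up to 0.0853), and both FACIT calls were lost without YFP-positive arrays 3 and 4 together.

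Col20a1, a FACIT collagen with few described roles, was higher in ENCDC. Its log2 levels were 6.28, 5.96, 6.11 and 6.13 on YFP-positive arrays and 5.60, 5.61 and 5.65 on YFP-negative arrays, with no overlap (0.50 ± 0.08 SE, limma adjusted p = 0.00552). That call was kept in all 7 fits that left out 1 array, and lost without YFP-positive arrays 3 and 4 together. The chains of type IX, which cover cartilage fibrils, had log2 fold changes of 0.14 (Col9a3), 0.11 (Col9a2) and -0.01 (Col9a1, which turned to 0.02 with median centring or quantile normalization) and did not pass. Col16a1 (-0.26), Col19a1 (-0.20) and Col22a1 (-0.08, log2 fold changes) did not pass either. Of these, Col19a1 passed without YFP-negative array 1 (-0.28, limma adjusted p = 0.0335), and Col16a1 passed with array weights (limma adjusted p = 0.0361) or without YFP-negative array 3 (limma adjusted p = 0.0388).

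The multiplexin and transmembrane class had 2 of 6 genes higher and 0 lower, also with 0 lower at an unadjusted limma p under 0.05, and a median log2 fold change of -0.12. The 2 higher genes are 33.3% of this small class, beside 8.39% of all genes. Col18a1, a multiplexin of basement membranes with heparan sulphate chains and the source of endostatin, had the largest increase of the 44 genes. It stood at log2 levels of 7.22, 7.19, 7.21 and 6.89 on YFP-positive and of 5.84, 6.13 and 6.20 on YFP-negative arrays. YFP-positive array 4 was the lowest of its group and still above each YFP-negative array, and the gene was 2.09-fold higher (1.07 ± 0.12 SE, limma adjusted p = 0.00114). Leaving out any 1 array kept the call (adjusted p of up to 0.00775), as did a test against a 1.5-fold difference.

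Col25a1, a transmembrane collagen that motor neurons are known to need to reach muscle, had log2 levels of 5.90, 5.92, 6.10 and 5.86 on YFP-positive arrays and of 5.61, 5.42 and 5.67 on YFP-negative arrays. The groups did not overlap (0.38 ± 0.09 SE, limma adjusted p = 0.0253), but the call was lost on dropping array 1 or 2 of the YFP-negative group or array 1, 2 or 3 of the YFP-positive group (adjusted p of up to 0.0808). Col15a1, the other multiplexin, stood at -0.11, and the transmembrane collagens Col13a1, Col23a1 and Col17a1 at -0.20, -0.14 and -0.14 (log2 fold changes), none of which passed. Col26a1, outside the classes, stood at -0.13 and did not pass.

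In the network and basement membrane class 0 of 9 genes passed in either direction, with a median log2 fold change of -0.14. Over all genes 9.11% were lower and 8.39% higher. Calls at an unadjusted p were not counted over all genes, and 2 genes of the class were lower at an unadjusted limma p under 0.05. These were Col8a1, a chain of vessel and corneal sheets, and Col4a1, a chain of the basement membrane network found in most tissues. Col8a1 stood at log2 levels of 5.41, 5.48, 5.92 and 5.58 on YFP-positive and 6.23, 6.90 and 6.04 on YFP-negative arrays (-0.80 ± 0.22 SE, limma adjusted p = 0.0503). Col4a1 stood at 6.72, 6.83, 7.10 and 7.06 on YFP-positive and 7.58, 7.62 and 7.15 on YFP-negative arrays (log2 levels; -0.52 ± 0.15 SE, limma adjusted p = 0.0535). Both genes were just short of the threshold and without overlap, where 13.5% of all genes were lower without overlap. In the class, 2 genes were lower with array weights, with the dimmest genes left out, with quantile normalization again or without YFP-negative array 3.

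Col4a2, which forms the trimer with Col4a1, had log2 levels of 6.14, 6.49, 6.50 and 6.49 on YFP-positive arrays and of 6.78, 6.63 and 6.49 on YFP-negative arrays, with overlap (-0.23 ± 0.12 SE, limma adjusted p = 0.249). The other type IV chains, of specialised membranes such as those of the kidney and smooth muscle, had log2 fold changes of -0.14 (Col4a6), -0.05 (Col4a5), -0.04 (Col4a3) and 0.01 (Col4a4). Col8a2 stood at -0.20 and Col10a1, a chain of growth plate cartilage, at 0.02, and neither passed.

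Many of the genes that did not pass showed little signal variation at all. Of the 26, 24 had a log2 fold change within 0.3 of 0, and 17 had the same value, to 4 decimals, on 3 or more arrays, against 0 of the 18 that passed. A value repeated on that many arrays leaves less room for a difference between groups, so this contrast is no separate result. Such repeated values were found in 17 of all 44 members, beside 32.7% of all genes. The arrays carry no detection call, so a level of these genes cannot be told from background, and a fold change of a dim gene can be understated.

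Chains that share a trimer or lie next to each other in the genome were set side by side by their differences between groups. For 12 such pairs the per-array difference of log2 values was compared between groups by a two-sided exact permutation test over 35 splits of the arrays. The smallest possible p of that test is 0.0571, so that no pair could pass 0.05. For each pair of types I and VI the per-array difference between the partners overlapped between the groups. Their log2 fold changes differed by 0.20 (Col1a1 minus Col1a2, exact p = 0.229, adjusted p = 0.343), -0.15 (Col6a1 minus Col6a2, exact p = 0.343, adjusted p = 0.457) and -0.09 (Col6a1 minus Col6a3, exact p = 0.686, adjusted p = 0.823). Leaving out 1 array moved these differences to between 0.087 and 0.275, between -0.209 and -0.040, and between -0.222 and 0.035. Larger differences were -1.04 for Col3a1 minus Col5a2 (neighbouring genes of different types), 0.74 for Col11a1 minus Col11a2, -0.60 for Col8a1 minus Col8a2 and -0.30 for Col4a1 minus Col4a2. For these pairs the per-array difference did not overlap between the groups and had the smallest possible exact p of 0.0571 (adjusted p = 0.171).

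Of the collagen genes, 8 pairs were neighbours with no other protein-coding gene between them in RefSeq. In 4 pairs both genes were lower (Col3a1 with Col5a2, Col6a1 with Col6a2, Col6a4 with Col6a5 and Col6a5 with Col6a6), in 4 neither passed (Col4a1 with Col4a2, Col4a3 with Col4a4, Col4a5 with Col4a6 and Col9a1 with Col19a1), and 0 pairs had unlike calls. Most of these pairs are chains of type IV or of type VI. Every type VI chain was lower and no type IV chain passed, so position and type cannot be told apart here. Like calls were not counted over other neighbouring genes. Col4a1 and Col4a2 are read in opposite directions from starts 21 bases apart in the RefSeq windows. Neighbours did not always differ by the same amount, as Col6a5 (-1.81) and Col6a6 (-0.39) show (log2 fold changes).

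The lower genes shared a pattern across the arrays that the classes did not use. In 14 of 14 the lowest YFP-positive level was on array 1 or 2, in 11 both array 3 and array 4 were above arrays 1 and 2, and in 10 the lowest YFP-negative level was on array 3. The same counts were not made over all genes lower in YFP-positive arrays. Whether the pattern is particular to collagen genes was therefore not tested. The mean level of the mesenchyme markers was 6.05, 6.22, 6.60 and 6.73 on YFP-positive arrays 1 to 4 and 7.90, 7.93 and 7.62 on YFP-negative arrays 1 to 3. That list holds transcription factors and receptors of gut connective tissue such as Foxf1 and Pdgfra, and also matrix genes such as Mfap4, Mfap5 and Dpt. The mesenchyme mean was likewise lowest on YFP-positive arrays 1 and 2 and, within the YFP-negative group, on array 3. The mean levels of the smooth muscle, pericyte and mesothelium markers were lowest on those same arrays. For smooth muscle they were 7.09, 7.63, 8.18 and 8.56 on YFP-positive and 9.27, 9.23 and 8.85 on YFP-negative arrays. The myeloid, endothelium and epithelium means were also lowest on YFP-positive arrays 1 and 2, but not on YFP-negative array 3. Of the 20 mesenchyme markers 17 were lower and 1 higher, and of 8 pericyte markers 6 were lower, with mean levels of 5.99 to 6.58 in YFP-positive and 7.11 to 7.46 in YFP-negative arrays. By share, 85.0% and 75.0% were lower, beside 9.11% over all genes. The higher mesenchyme marker is 5.0% of its list, beside 8.39%.

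Smooth muscle markers were lower in 7 of 12 cases (58.3%, beside 9.11% of all genes), with mean levels of 7.09 to 8.56 against 8.85 to 9.27. Myeloid markers stood at 5.27 to 6.34 against 9.19 to 9.42. Endothelium markers were lower in 2 of 12 cases and higher in 1 (5.01 to 5.29 against 5.43 to 5.67), and mesothelium markers lower in 1 of 8 (6.32 to 6.96 against 6.58 to 7.23). The lower shares were 16.7% and 12.5%, beside 9.11% over all genes. The higher share of endothelium markers was 8.33%, beside 8.39%. Epithelium markers passed in 0 of 12 cases by limma, with 1 at an unadjusted p under 0.05, and their mean was 7.71 to 8.75 in YFP-positive and 8.23 to 8.35 in YFP-negative arrays. Enteric neuron markers stood at 8.98 to 9.56 against 5.13 to 5.50. The share of these other cells in the collagen levels of either group was not tested, and in sorted bulk samples fewer cells of a type and less RNA per cell cannot be told apart.

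**Figure D4:**
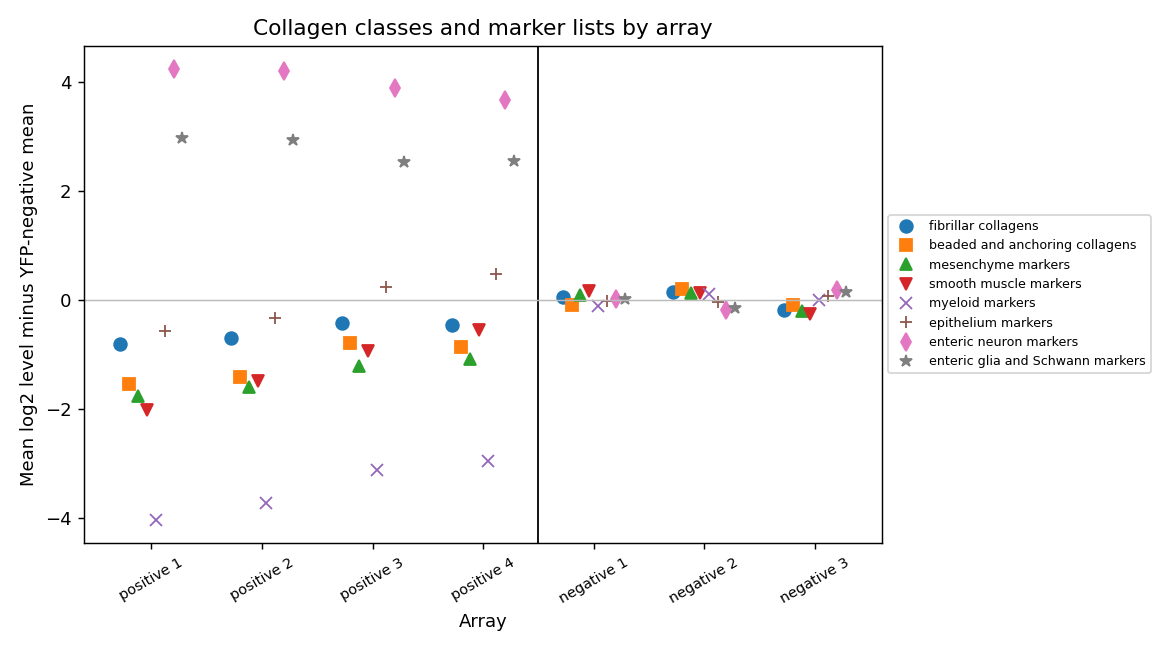
Mean log2 level of 2 collagen classes and 6 marker lists on each array, minus the list's mean over the YFP-negative arrays; each symbol is a list, and the line separates the groups. The fibrillar and beaded classes and the mesenchyme, smooth muscle and myeloid markers all lie below 0 on the YFP-positive arrays and are lower on arrays 1 and 2 than on arrays 3 and 4, while the neuron and glia markers lie above 0.

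Among genes that make, bind and remove collagen, most that passed were lower. Over 6 lists with 108 measured genes, 39 were lower and 5 higher in ENCDC, and the median log2 fold change was -0.35. These are 36.1% and 4.63% of the measured genes, beside 9.11% and 8.39% over all genes. Without YFP-negative array 2 the lower genes numbered 18, and without YFP-negative array 1 they numbered 23, while the 5 higher genes became 3 on dropping array 1 or 2 of the YFP-negative group or array 4 of the YFP-positive group. Without YFP-positive arrays 3 and 4 together, 27 were lower and 3 higher.

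Of 24 genes that fold, modify or export collagen chains, 7 were lower and 1 was higher (median log2 fold change -0.38). These are 29.2% and 4.17% of the list, beside 9.11% and 8.39% over all genes. Creb3l1, a transcription factor that turns on collagen genes in bone and other matrix-making cells, was the lowest, at -1.55 ± 0.30 SE (limma adjusted p = 0.0128). Sec24d, a coat protein of the vesicles that carry procollagen (-1.23 ± 0.25), the proline isomerase Fkbp14 (-1.14 ± 0.23) and the prolyl hydroxylase subunit P4ha2 (-0.97 ± 0.24, log2 fold change ± SE) followed. P3h2, a prolyl 3-hydroxylase known to act on type IV collagen, was the 1 higher gene, at 0.64 ± 0.16 SE (limma adjusted p = 0.0330), and its call was lost on dropping any array of the YFP-negative group or array 2 or 4 of the YFP-positive group (adjusted p of up to 0.101). Dropping 1 array of the YFP-negative group gave 1 lower gene (array 1), 0 (array 2) or 16 (array 3) in this list, and dropping 1 of the YFP-positive group gave 4 (array 1, 3 or 4) or 2 (array 2).

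Of 13 genes that trim procollagen or crosslink fibrils, 5 were lower and 0 higher, also with 0 higher at an unadjusted limma p under 0.05, and the median log2 fold change was -0.23. The lower genes are 38.5% of the list, beside 9.11% over all genes. The crosslinking enzyme Lox had log2 levels of 6.79, 7.22, 7.83 and 7.99 on YFP-positive arrays and of 9.69, 9.79 and 8.82 on YFP-negative arrays (-1.98 ± 0.36 SE, limma adjusted p = 0.00927). Pcolce, the enhancer of the C-propeptide protease (-1.91 ± 0.31), the transglutaminase Tgm2 (-1.71 ± 0.35) and Loxl1 (-1.29 ± 0.26, log2 fold change ± SE) were lower as well. As with Col1a1 and Col6a1, YFP-positive array 1 was the lowest and YFP-negative array 3 the lowest of its group for all 4 genes. This list had 2 lower genes on dropping array 1 or 2 of the YFP-negative group and 3 on dropping array 2 of the YFP-positive group.

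Proteins that coat or organise fibrils were lower in 10 of 21 cases and higher in 0, with a median log2 fold change of -0.43 and 0 higher at an unadjusted limma p under 0.05. The lower genes are 47.6% of the list, beside 9.11% over all genes. Dpt (-2.42 ± 0.37), Lum (-2.30 ± 0.37), Ogn (-2.20 ± 0.42) and Aspn (-2.14 ± 0.40), small matrix proteins that bind collagen fibrils, were the lowest (log2 fold change ± SE). Lum had log2 levels of 7.27, 7.95, 8.02 and 8.42 on YFP-positive arrays and of 10.77, 10.40 and 9.47 on YFP-negative arrays. Dpt also stands in the mesenchyme list. Without YFP-negative array 2 the lower genes of this list numbered 6.

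Of 14 basement membrane partners of type IV, 2 were higher and 1 lower, with a median log2 fold change of -0.17. Those shares, 14.3% and 7.14%, lay near the all-gene shares of 8.39% and 9.11%. Agrn, a heparan sulphate proteoglycan of basement membranes and synapses, had log2 levels of 8.36, 8.17, 7.83 and 8.19 on YFP-positive arrays and of 7.10, 6.99 and 6.78 on YFP-negative arrays (1.18 ± 0.14 SE, limma adjusted p = 0.00134). The laminin gene Lama4, of nerve and vessel basement membranes, was higher by 0.52 ± 0.10 and Nid2, a linker of laminin and type IV networks, lower by -0.70 ± 0.16 (log2 fold change ± SE). The call of Nid2 was kept in 1 of the 7 fits that left out 1 array, the one without YFP-negative array 3 (adjusted p of up to 0.0929 in the others).

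Collagen receptors were lower in 7 of 14 cases and higher in 2, and their median log2 fold change was -0.57. By share, 14.3% of the list were higher, near the 8.39% over all genes, where 9.11% were lower. Lair1, an inhibitory collagen receptor of leukocytes, was lowest (-2.40 ± 0.13 SE, limma adjusted p = 7.12e-05), beside the low myeloid markers given above. Ddr2, a tyrosine kinase receptor for fibrillar collagen (-1.27 ± 0.24), the type VI collagen receptor Antxr1 (-1.19 ± 0.16) and the collagen uptake receptor Mrc2 (-1.10 ± 0.10, log2 fold change ± SE) were lower too.

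Itga2, the alpha subunit of a collagen-binding integrin, was higher in ENCDC. Its log2 levels were 7.90, 7.64, 7.50 and 7.61 on YFP-positive arrays and 6.60, 6.77 and 6.80 on YFP-negative arrays, without overlap (0.94 ± 0.11 SE, limma adjusted p = 0.00118). Adgrg1, an adhesion G-protein-coupled receptor that binds type III collagen, was higher by 0.43 ± 0.09 SE (limma adjusted p = 0.0211), a call that was lost on dropping array 1 or 2 of the YFP-negative group or array 3 or 4 of the YFP-positive group (adjusted p of up to 0.0697). The lower receptors numbered 4 without YFP-negative array 2, and the higher ones 1 in those same 4 fits.

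Genes of collagen breakdown were lower in 9 of 22 cases and higher in 0, with a median log2 fold change of -0.35 and 3 higher at an unadjusted limma p under 0.05. The lower genes are 40.9% of the list, beside 9.11% over all genes. Calls at an unadjusted p were not counted over all genes. Mmp8 (-2.85 ± 0.36) and Mmp9 (-2.83 ± 0.22), collagenase and gelatinase genes of neutrophils and macrophages, were lowest, followed by the fibroblast protease gene Fap (-2.18 ± 0.33) and the gelatinase gene Mmp2 (-1.71 ± 0.24, log2 fold change ± SE). Mmp9 had log2 levels of 4.39, 4.84, 5.11 and 5.30 on YFP-positive arrays and of 7.63, 7.98 and 7.61 on YFP-negative arrays. Its YFP-positive levels rose from array 1 to array 4, as did the means of the myeloid, mesenchyme, smooth muscle, mesothelium and epithelium markers. Mmp8 and Lair1 were instead lowest on YFP-positive array 2. Without YFP-negative array 2 the lower genes of this list numbered 6, and without YFP-positive arrays 3 and 4 together 4.

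**Figure D5:**
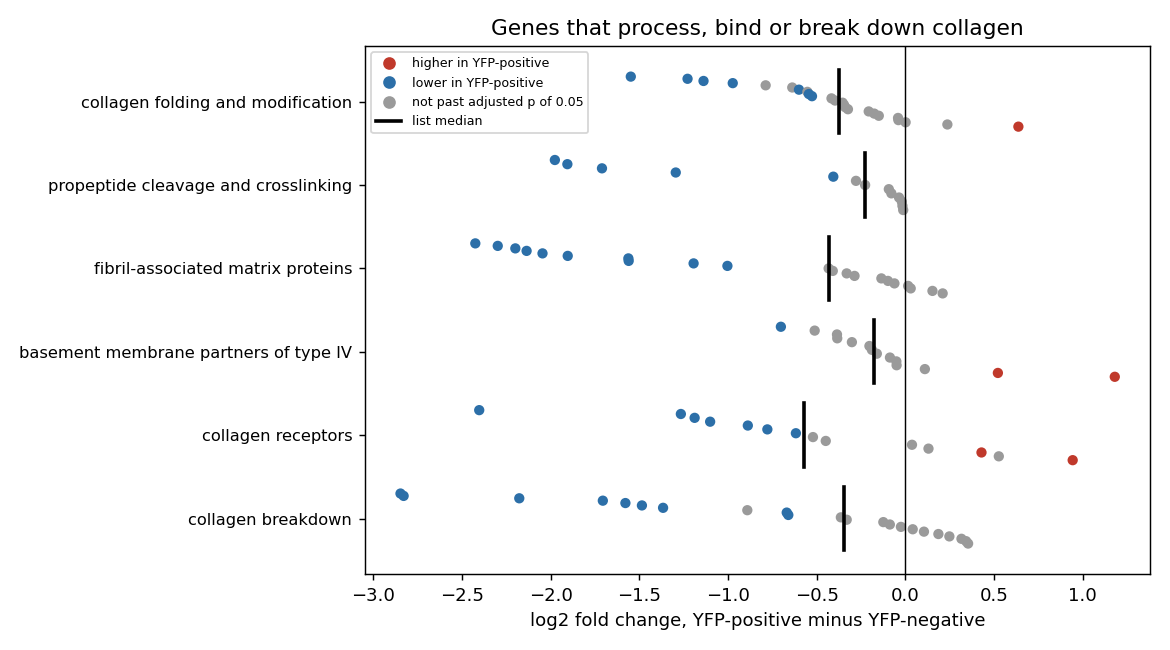
Log2 fold change of each measured gene in 6 lists of collagen processing, partners, receptors and breakdown, YFP-positive minus YFP-negative; each point is a gene, colours mark genes past the limma adjusted p of 0.05, and bars give list medians. All 6 medians are below 0, from -0.57 to -0.17, and the largest increases are Agrn at 1.18 and Itga2 at 0.94.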

How the data were processed

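RNA of 7 sorted samples was measured on Affymetrix mouse gene arrays. The authors deposited log2 values for each probe set. The submitters' processing notes name Affymetrix Expression Console and RMA, a method that subtracts background, equalises the arrays and combines the probes of a set. Labelled cDNA was amplified from small RNA amounts, per the labels' protocols, which can compress differences. Of 35556 probe sets, 21789 carried 1 gene symbol, 1621 several and 12146 none in the platform annotation, and those with 1 gave 19938 genes. Samples were matched to columns by name, with 0 columns left over, and 44 of 44 member identifiers matched RefSeq symbols.

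Tests used limma 3.58.1 in R 4.3.3 (lmFit and eBayes, group as the only term, Benjamini-Hochberg over all genes, threshold 0.05), and the fit was tested on simulated data. Tables and figures used matplotlib 3.10.9, numpy 2.4.6 and pandas 2.3.3 under Python 3.11.15. Values are log2 level differences, YFP-positive minus YFP-negative, with the moderated standard error. The members, lists and alternatives were chosen with earlier results of these data known. Named genes are all collagen members, with array values for those past the threshold that are higher, for up to 3 per class past the threshold with the largest decrease, and for 9 fixed chains (array values of Col5a2, Col8a1 and Col28a1 were added with their values known), and up to 4 genes past the threshold per direction of each other list. The alternatives were trend and robust eBayes, median centring, quantile normalization, leaving out the dimmest genes (the lowest tertile of mean level), the mean of probe sets, every probe set, array weights, a test against 1.5-fold, a replicate block and leaving out each array. Genome coordinates come from RefSeq and not from the array annotation.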

Additional observations from a re-analysis of the deposited data

Results flagged for a closer look

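Single YFP-positive arrays stood apart for 9 of the 44 collagen genes, in that the gap of 1 array to the nearest other took up most of the range of the 4 arrays (Dixon's criterion). Chance gives about 1 in 20 such groups. Among genes that passed, these were Col12a1 on YFP-positive array 2 (7.15) and Col18a1 on array 4 (6.89). Among genes that did not pass, they were Col4a2 on array 1 (6.14), Col5a3 on array 1 (5.49), Col17a1 on array 2 (4.94), Col28a1 on array 2 (4.82), Col9a1 on array 2 (4.62), Col4a4 on array 3 (5.10) and Col26a1 on array 4 (5.96). In Col17a1, Col28a1, Col9a1, Col4a4 and Col26a1 the other 3 arrays had 1 common value, so that any departure counts as a gap. All are log2 levels.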

How the results depend on the processing

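Fold change signs of the 18 collagen genes that passed were the same under all alternatives, while counts of calls moved. With the replicate number as a block, 5 collagen genes were lower and 2 higher (fibrillar 2 lower, beaded and anchoring 3 lower, FACIT 0 lower and 0 higher, multiplexin and transmembrane 1 higher), and the lists had 22 lower genes. Same-numbered samples did not deviate together (correlations of 0.01, -0.09 and 0.04), and those of unlike number had correlations of -0.16 to 0.27. With so few arrays, of different cells, these values cannot tell whether the numbers pair the samples. A test against 1.5-fold left 2 lower and 1 higher (fibrillar 1 lower and 0 higher, beaded and anchoring 1 lower, FACIT 0 and 0, multiplexin and transmembrane 1 higher), with 11 lower and 1 higher in the lists and 558 and 469 over all genes. Without YFP-positive arrays 3 and 4 together, chosen after seeing the data, 8 were lower and 2 higher (fibrillar 3 lower, FACIT 0 and 0, multiplexin and transmembrane 1 higher), with 3 higher in the lists. The network and basement membrane class had 2 lower genes with array weights, with the dimmest genes left out or with quantile normalization again, and 1 with the mean of probe sets, median centring or trend and robust options.

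Leaving out 1 array at a time gave 6 to 13 lower and 3 to 4 higher collagen genes. By class the ranges were 2 to 5 lower (fibrillar), 0 to 2 lower (network and basement membrane), 2 to 5 lower (beaded and anchoring), 1 to 3 lower (FACIT) and 1 to 2 higher (multiplexin and transmembrane). The lists had 18 to 54 lower and 3 to 5 higher genes, and all genes 1166 to 1890 lower and 1202 to 1452 higher. The differences within the 12 pairs moved by less than the spread between arrays. Signs turned on leaving out 1 array for Col5a1 minus Col5a2 (-0.070 to 0.147), Col6a1 minus Col6a3 (-0.222 to 0.035) and Col9a2 minus Col9a3 (-0.169 to 0.056). Signs turned for genes near 0 that did not pass: without YFP-positive arrays 3 and 4 Col10a1 was -0.0052, with the block Col11a2 was 0.032 and Col2a1 0.013, with median centring Col11a2 was 0.0096 and Col9a1 0.019, and with quantile normalization Col11a2 was 0.014 and Col9a1 0.018. On leaving out 1 array, Col10a1 ranged from -0.0052 to 0.038, Col11a2 from -0.066 to 0.032, Col22a1 from -0.141 to 0.0093 and Col2a1 from -0.055 to 0.013. Median centring moved the median of all genes by 0.03. The causes of these changes were not tested beyond the fewer arrays or stricter threshold of each fit. With no detection calls, background limits the dim genes.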
